A study of Mus musculus with 28 samples.

Results

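Cultured induced neural stem cells made from mouse fibroblasts (miNSC) were set against neural stem cells (NSC) of the brain. All 20 miNSC libraries and both NSC libraries entered, 22 of the 28 libraries in the series, and a gene was kept where every miNSC library lay on 1 side of both NSC libraries. Of 15567 genes tested, 1278 were kept. The miNSC carried eSox17FNV, an engineered Sox17 written F, with further factors that the labels write as B, K and M, from doxycycline-driven lentiviruses with M2rtTA, and colonies were picked and expanded on Matrigel with bFGF and EGF. There were 9 lines with 2 libraries each, except for 1 line sampled at 2 passages with 2 libraries each. Embryonic fibroblasts (MEF) were the source of 5 lines: BKF and KF of the ICR strain, and KF, BKF and KMF of the Sox2-GFP reporter strain. The other 4 lines came from 1.0-year Sox2-GFP animals: KMF, BKF and 4F1 from the tail tip and 4F from the ear. Both 4F lines were made with B, K, M and F, and 4F1 was taken at passages 8 and 18. The NSC came from 2.5-year Sox2-GFP mice and carried no added factor, with 1 library at passage 2 and 1 at passage 5. Their brain region and culture medium are not given in the sources used here. Values of 6 Sox2-GFP fibroblast libraries (tail-tip at 1.0 and 2.5 years, skin at 2.5 years) stand beside some genes and entered only the alternative fit over 14 groups of libraries.

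Neural stem cells divide and can give neurons, astrocytes and oligodendrocytes, and cultures with bFGF and EGF keep them cycling. Each also holds a regional code laid down in the embryo: Six3 and Lhx2 mark the forebrain, En1 and Irx genes the midbrain and anterior hindbrain, and Hox genes the hindbrain and spinal cord. Fibroblasts carry a code of their own, in which Twist1 and Tbx15 mark mesenchyme of the body wall and skin.

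The general markers fitted both labels. Sox2, a transcription factor of neural stem cells, spanned 969 to 2854 with a median of 2207 in miNSC libraries and stood at 2745 and 2304 in NSC at passages 2 and 5, while all fibroblast libraries were at 0. Values are the deposited normalised scores, which allow comparison of 1 gene between libraries but not of levels between genes. Summed over 30 neural stem and progenitor genes, the score was 173371 to 318607 in miNSC libraries, 257909 and 260325 in the NSC libraries and 49954 to 71267 in fibroblasts. A few very high genes carry that sum, and the mean log2(value + 1) of the same list was 10.24 to 11.32 in miNSC libraries, below the 11.58 and 11.62 of NSC at passages 2 and 5. Over 25 fibroblast and matrix genes it was 2523 to 31335 in miNSC libraries, 3954 and 4685 in the NSC libraries and 738404 to 825478 in fibroblasts. Sums over markers of leukocytes (9 genes) were 11 to 216 in miNSC and 5 and 24 in NSC, and sums over 4 pluripotency genes were 58 to 162 in miNSC and 81 and 49 in NSC, with each pluripotency gene below 100 in all 22 libraries. Endothelial markers (9 genes) summed to 190 to 417 in miNSC and to 191 and 1002 in NSC at passages 2 and 5. Ependymal and choroid plexus markers (4 genes) summed to 128 to 1287 in miNSC and to 1198 and 2152 in NSC. In bulk libraries, fewer cells of a type and less RNA per cell cannot be told apart.

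Several features of the design move with the cell type. The donors of NSC were older than those of every miNSC line, both ICR lines are of another strain, and the NSC libraries have no second library at either passage. The sex-linked transcripts split completely as well. Xist, the RNA that coats the inactive X chromosome of females, spanned 126 to 253 with a median of 198 in miNSC, against 92914 and 42158 in NSC at passages 2 and 5 (log2 difference -8.35 ± 0.23 SE, adjusted p = 1e-08, limma). The Y-linked genes Ddx3y (808 to 3552), Eif2s3y (494 to 3668) and Uty (1392 to 1934) were present in all miNSC libraries and at 0 in both NSC libraries. Kdm5d, also Y-linked, was at 278 to 2264 in miNSC but not at 0 in NSC, with 213 and 228, and was not called. Age, sex-linked transcripts and brain origin therefore cannot be told apart from the way the cells were made. Nothing in the labels says that libraries of 1 line came from separate cultures, so each line counted as 1 sample, and the p-values cover only how far these lines and the NSC libraries scatter.

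Across the genome the difference was mostly small, with a set of large ones. By limma on log2(value + 1), 747 of 15567 genes (4.8%) passed a threshold of 0.05 adjusted by Benjamini and Hochberg over all genes. They comprised 396 genes higher in miNSC (2.54%) and 351 lower (2.25%), and 531 of the 747 differed by at least 2-fold. Without overlap of libraries were 1278 genes (8.21%), of which 616 were higher in every miNSC library (3.96%) and 662 lower (4.25%). Both criteria held for 314 genes higher and 289 lower in miNSC. Counts in the lists below are to be read beside these shares over all genes, and no list was tested against them. The count of called genes was 144 with passage 5 as the only NSC library and 1105 with passage 2, and the count without overlap 2640 and 5153. Leaving out a line gave 472 called genes without tail-tip BKF to 1165 without Sox2-GFP MEF KF. Of 84 genes past the threshold that are named by rule or list, 45 were lost with passage 5 alone and 21 with passage 2 alone, and 0 changed direction. A gene without overlap cannot change direction when libraries or lines are left out. Treating libraries rather than lines as samples in 14 groups gave 6483 genes (41.6%).

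Forebrain transcription factors were among the genes with the largest decreases in miNSC. Of 15 tested members of the forebrain list, 6 were lower in miNSC, among them Six3, Gsx1, Lhx2 and Emx2, and 2 were higher, Nr2f2 and Vax2. Over all tested genes, 2.25% were lower and 2.54% higher. The median log2 difference of the list was -0.12, against 0.04 over all tested genes. Six3 (chr17:85613608-85629302), a homeobox factor of the anterior forebrain and eye field, spanned 9 to 60 with a median of 23.5 in miNSC, against 1150 and 1342 in NSC at passages 2 and 5. All miNSC libraries were thus far below both NSC libraries (log2 difference -5.63 ± 0.52 SE, 9 lines against 2 NSC libraries, adjusted p = 0.000245, limma). Gsx1 (chr5:147188696-147190947), a homeobox factor of the ventral telencephalon and of dorsal interneuron domains of the spinal cord, spanned 0 to 8 with a median of 0 in miNSC, against 136 and 103 in NSC (log2 difference -6.20 ± 0.72, adjusted p = 0.00129, limma).

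The promoters of Six3 and Gsx1 are shown as the start regions of genes at or near 0 in miNSC, and those of Hoxb4 and Twist1 as genes at 0 in both NSC libraries. Each runs over the 250 bases before the gene start, from RefSeq on GRCm38.p6, plus strand, with every CG dinucleotide in capitals. CG reads the same on both strands and the 4 windows hold 10, 15, 14 and 18 of them. Of 27025 promoters of this length in the table, 38.2% hold at least as many as Six3, 27.5% as Gsx1, 29.6% as Hoxb4 and 21.6% as Twist1. The median was 6 over all of these promoters but 15 over those of the tested genes, so beside tested genes none of the 4 counts is far from the middle. Six3 lies at chr17:85620584-85620833, Gsx1 at chr5:147188446-147188695, Hoxb4 at chr11:96318017-96318266 and Twist1 at chr12:33957421-33957670. The Six3 window falls inside the gene interval given above, which is from GENCODE and starts elsewhere than the RefSeq gene. The count describes the letters and says nothing of methylation, which was not measured.
Six3: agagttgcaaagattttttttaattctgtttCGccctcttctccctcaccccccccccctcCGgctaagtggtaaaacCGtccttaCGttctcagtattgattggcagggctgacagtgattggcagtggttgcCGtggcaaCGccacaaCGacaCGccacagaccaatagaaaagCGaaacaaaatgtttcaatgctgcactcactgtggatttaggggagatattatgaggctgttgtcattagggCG
Gsx1: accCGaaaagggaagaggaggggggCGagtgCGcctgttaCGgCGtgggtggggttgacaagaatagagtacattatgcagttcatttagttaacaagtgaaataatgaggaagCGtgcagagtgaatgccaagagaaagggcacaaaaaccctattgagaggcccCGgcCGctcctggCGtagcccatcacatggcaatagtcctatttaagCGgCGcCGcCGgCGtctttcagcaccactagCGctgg
Hoxb4: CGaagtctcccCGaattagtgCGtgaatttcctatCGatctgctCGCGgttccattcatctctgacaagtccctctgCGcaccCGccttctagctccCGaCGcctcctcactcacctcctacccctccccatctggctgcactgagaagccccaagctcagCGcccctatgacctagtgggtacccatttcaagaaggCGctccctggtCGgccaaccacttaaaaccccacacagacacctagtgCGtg
Twist1: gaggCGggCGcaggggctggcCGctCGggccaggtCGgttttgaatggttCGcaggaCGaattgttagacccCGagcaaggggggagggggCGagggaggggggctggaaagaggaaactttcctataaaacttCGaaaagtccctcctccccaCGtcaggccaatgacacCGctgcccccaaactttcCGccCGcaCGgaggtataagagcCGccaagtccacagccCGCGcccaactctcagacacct

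The other forebrain genes were lower by less. Lhx2, a LIM-homeobox factor of cortex and eye, spanned 160 to 520 with a median of 393 in miNSC, against 1434 and 936 in NSC (log2 difference -1.71 ± 0.37, adjusted p = 0.0282, limma). Emx2, a homeobox factor of the dorsal telencephalon, spanned 128 to 199 in miNSC, against 311 and 271 in NSC, a small difference with little spread (-0.86 ± 0.16, adjusted p = 0.0161, limma). Nr2e1 (Tlx), the nuclear receptor that maintains adult neural stem cells, was at 0 to 104 with a median of 32.5 in miNSC, against 501 and 654 in NSC. Its libraries did not overlap either, but the lines varied and it missed the threshold (adjusted p = 0.057, limma). Nr2f2 (COUP-TFII), a nuclear receptor of caudal and ventral forebrain and of mesenchyme, went the other way with 248 to 724 in miNSC, 28 and 57 in NSC and 316 to 2336 in fibroblasts (log2 difference 3.33 ± 0.32, adjusted p = 0.000333, limma). Sp9, a factor of ventral forebrain interneurons, was at 60 to 510 in miNSC and 40 and 30 in NSC and was not called (adjusted p = 0.0714, limma). Six3, Gsx1 and Nr2f2 passed in every alternative run for them, Lhx2 in all but 4 of 26 and Emx2 in all but 3 of 26. Vax2 was lost in 19 of 25.

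Of 12 tested midbrain and hindbrain patterning factors 4 were higher in miNSC (Irx5, Irx1, Gata2 and Tal2) and 0 lower. Over all tested genes, 2.54% were higher and 2.25% lower. The median log2 difference of the list was 2.13, against 0.04 over all tested genes. Irx5 (chr8:92357625-92376286), an Iroquois homeobox factor, spanned 204 to 512 with a median of 333 in miNSC, against 68 and 80 in NSC (log2 difference 2.16 ± 0.28, adjusted p = 0.00288, limma). Irx1, of the same family, spanned 40 to 391 in miNSC, against 18 and 30 in NSC (adjusted p = 0.0375, limma), and stood at 344 to 604 in fibroblasts. En1, the engrailed factor of the midbrain-hindbrain border, was above both NSC libraries everywhere, with 43 to 662 and a median of 88 in miNSC and 12 and 25 in NSC. It was not called (adjusted p = 0.079, limma), and its fibroblast values of 116 to 473 overlapped those of miNSC. Irx5 lost its call in 1 of 26 alternatives, with passage 5 as the only NSC library, while Irx1 lost it in 10 of 26, Gata2 in 10 of 25 and Tal2 in 18 of 25.

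**Figure D1:**
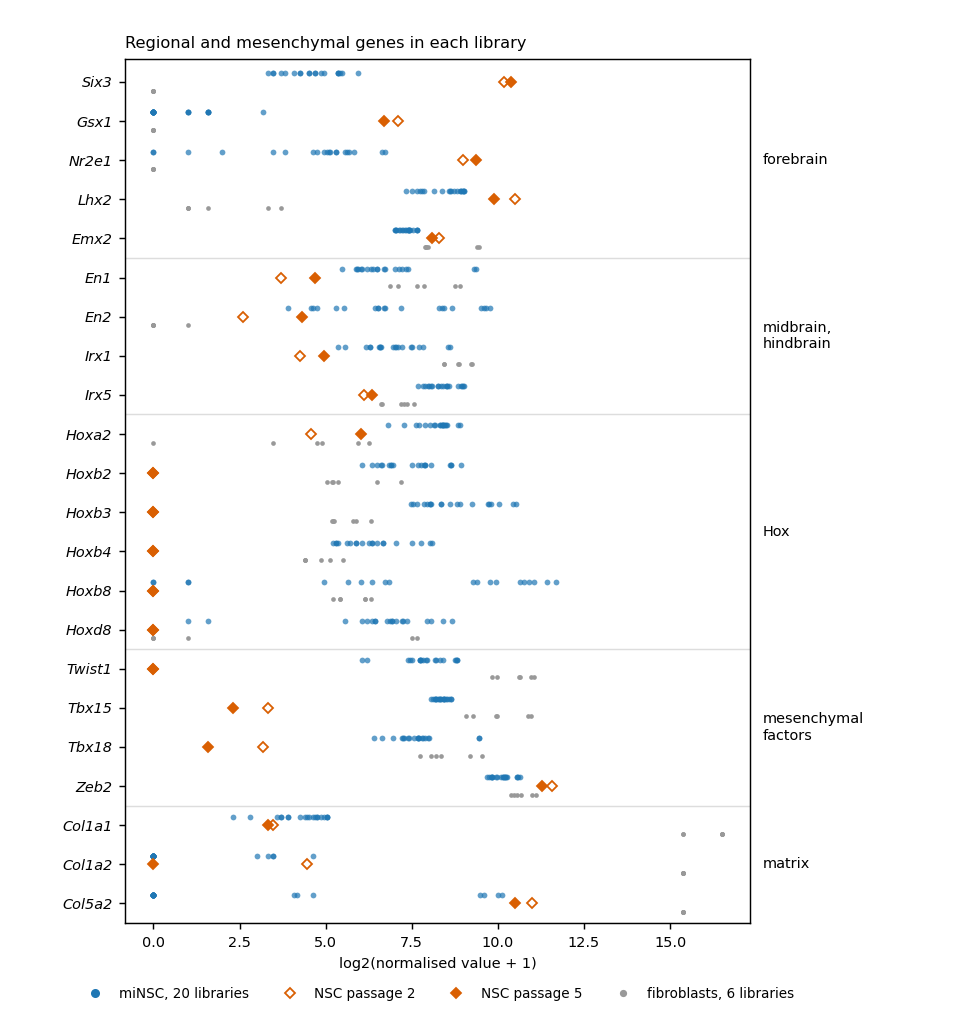
Value of regional, Hox, mesenchymal and matrix genes in each library, as log2(normalised score + 1) on the horizontal axis. Points are the 20 miNSC libraries, diamonds the NSC libraries (open at passage 2, filled at passage 5) and small grey points the 6 fibroblast libraries. Six3 separates to the right for NSC, and Hoxb2, Hoxb3, Hoxb4 and Twist1 stand at 0 in both NSC libraries.

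Anterior Hox genes were on in every miNSC line and low or absent in NSC. Of 9 tested genes in paralog groups 1 to 4, 5 were higher in miNSC and 0 lower, with a median log2 difference of 3.50. Over all tested genes, 2.54% were higher and 2.25% lower. Hoxb2 (chr11:96350525-96354012) spanned 66 to 488 with a median of 192 in miNSC, Hoxb3 (chr11:96323326-96347930) 178 to 1480 with a median of 359, and Hoxb4 (chr11:96318267-96321638) 36 to 270 with a median of 78. These neighbours in the HoxB cluster, which pattern the hindbrain and its border with the spinal cord, were at 0 in both NSC libraries, and limma gave adjusted p = 9.38e-05, 9.63e-05 and 0.000657. Fibroblasts had them at 32 to 144 for Hoxb2, 35 to 79 for Hoxb3 and 20 to 44 for Hoxb4. Every miNSC library thus lay above all 6 fibroblast libraries for Hoxb3, and values overlapped for Hoxb2 and Hoxb4. Hoxa2, which patterns the second rhombomere, spanned 111 to 481 in miNSC, against 23 and 64 in NSC (log2 difference 2.96 ± 0.38, adjusted p = 0.00261, limma, lost in 1 of 26). Hoxa3 stood at 153 to 600 in miNSC, against 28 and 216 in NSC, and its call (adjusted p = 0.0484, limma) was lost in 16 of 26 alternatives.

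Posterior Hox genes stood higher in miNSC on average but varied widely between lines, and few passed. The 10 tested genes of groups 5 to 9 had a median log2 difference of 4.11, and their mean log2(value + 1) was 3.21 to 8.26 over the miNSC lines, against 0.62 and 1.36 in NSC at passages 2 and 5. Only Hoxd8 passed, with 1 to 404 in miNSC and 0 in both NSC libraries (adjusted p = 0.032, limma, lost in 9 of 26 alternatives). Of all tested genes, 2.54% were higher. Hoxb8 ran from 0 in both libraries of the ICR MEF BKF line to 2735 and 3303 in those of the tail-tip BKF line, with 0 in both NSC libraries. Both libraries of a line stood close together. Hoxa9 was at 680 to 1358 in the 4 libraries of the tail-tip 4F1 line and at 8 or less in every other miNSC library, and Hoxa10 at 1030 to 1626 in that line and at 56 or less elsewhere. The tail-tip fibroblasts held 40 to 54 for Hoxa9 and 220 to 270 for Hoxa10. Factors of the dorsoventral axis also varied between lines, and 0 of 13 tested passed. Nkx6-1, a factor of ventral progenitors, was at 546 to 941 in the tail-tip 4F1 line, at 124 to 358 in the tail-tip BKF and KMF lines, at 70 or less in the other miNSC lines and at 0 in both NSC libraries. Pax3, a factor of dorsal progenitors, was at 204 to 230 in ICR MEF BKF, 103 to 114 in Sox2-GFP MEF BKF and 84 to 94 in Sox2-GFP MEF KMF, at 15 or less in the other lines and at 0 in NSC. Zic1, also dorsal, was at 131 to 1134 in the MEF lines and the ear 4F line and at 0 to 26 in the tail-tip lines, against 14 and 76 in NSC. Dbx2, a factor of intermediate progenitors, reached 1055 and 1626 in tail-tip 4F1 at passage 18, against 128 and 156 in the same line at passage 8 and 1278 and 2191 in NSC.

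Several mesenchymal transcription factors were higher in miNSC than in NSC. Of 16 tested mesenchymal factors, 6 were higher in miNSC, among them Twist1, Tbx15, Tbx18, Osr2 and Prrx2, and 1 was lower (Zeb2). The median log2 difference of the list was 2.80, and 2.54% of all tested genes were higher and 2.25% lower. Twist1 (chr12:33957671-33959829), a basic helix-loop-helix factor of mesoderm and cranial mesenchyme, spanned 65 to 452 with a median of 234 in miNSC, against 0 and 0 in NSC and 913 to 2106 in fibroblasts (adjusted p = 1.75e-06, limma). Tbx15 (chr3:99240381-99354259), a T-box factor of limb and skin mesenchyme, had the tightest range among them, 268 to 397 in miNSC, against 9 and 4 in NSC and 535 to 1984 in fibroblasts. Its log2 difference was 5.54 ± 0.21 (adjusted p = 1.21e-07, limma), and like Twist1 it lay between NSC and fibroblasts in every miNSC library. Tbx18, a T-box factor of mural and mesenchymal cells, spanned 84 to 701 in miNSC, against 8 and 2 in NSC (log2 difference 5.26 ± 0.61, adjusted p = 0.00129, limma). Osr2, a zinc-finger factor of palate and limb, spanned 20 to 114 in miNSC, against 0 and 1 in NSC (5.10 ± 0.61, adjusted p = 0.00159, limma). Twist1, Tbx15, Tbx18 and Osr2 passed in every alternative, while Prrx2 was lost in 14 of 25. Zeb2, a zinc-finger factor of neural and mesenchymal cells, was the lower one, with 814 to 1594 in miNSC, against 3047 and 2469 in NSC (log2 difference -1.29 ± 0.20, adjusted p = 0.00838, limma, lost in 3 of 26).

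Of 18 tested fibroblast and matrix genes 0 were higher and 1 lower in miNSC, with a median log2 difference of 0.54. Over all tested genes, 2.54% were higher and 2.25% lower. Col1a1, the main chain of type I collagen, was at 4 to 32 in miNSC and 10 and 9 in NSC, against 42158 to 92914 in fibroblasts, and Col1a2 was at 0 to 24 in miNSC and 21 and 0 in NSC, against 42158 in all fibroblasts. Col5a1, a chain of type V collagen, was at 151 to 786 in miNSC and 250 and 262 in NSC, against 10338 to 92914 in fibroblasts. Col3a1, type III collagen, reached 1346 and 1352 in the ICR MEF KF line, with 156 or less in the other miNSC libraries and 0 and 23 in NSC, against 28060 to 32713 in fibroblasts. These collagens thus stood below the fibroblast range in every miNSC library. Fbln2, the matrix protein fibulin 2, was the most uneven: it ran from 87 in ICR MEF KF to 24590 in both ear 4F libraries, against 695 and 90 in NSC and 24590 to 92914 in fibroblasts, and was not called (adjusted p = 0.339, limma). The gene that passed was Col5a2, another chain of type V collagen, at 706 to 1110 in the tail-tip 4F1 line and 0 to 24 in the other miNSC lines, against 2024 and 1450 in NSC. That call (adjusted p = 0.0442, limma) was lost in 16 of 25 alternatives.

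The core neural stem genes were shared, and a subset stood lower in all miNSC libraries. Only Lhx2 of 30 passed, with a list median of -0.26 on the log2 scale, beside 4.8% of all tested genes. Yet 7 of the 30 had no overlap, all lower in miNSC, beside 4.25% of all tested genes. Pax6, a paired-box factor of radial glia, was at 420 to 934 in miNSC and 674 and 570 in NSC (log2 difference -0.08 ± 0.18). Fabp7, a lipid carrier of radial glia, was at 28060 to 92914 in miNSC and at 28060 and 92914 in NSC, the ends of the same range. Sox9, a factor of glial and stem cell identity, was at 654 to 3336 with a median of 1523 in miNSC, against 4989 and 4838 in NSC, and narrowly missed the threshold (log2 difference -1.77 ± 0.45, adjusted p = 0.0512, limma). Msi1, an RNA-binding protein of stem cells, was at 490 to 1683 in miNSC, against 1902 and 2250 in NSC (adjusted p = 0.057, limma). Sox1, of the same family as Sox2, was at 0 to 554 with a median of 16 in miNSC, against 1039 and 1148 in NSC (adjusted p = 0.108, limma). For Sox9, Msi1 and Sox1 every miNSC library was below both NSC libraries although the test was not passed.

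Astrocyte genes separated into a few very large differences and many that overlapped. Of 22 tested, 1 was higher in miNSC and 2 were lower, beside 2.54% and 2.25% of all tested genes. Between the NSC libraries 9 differed by over 2-fold, all higher at passage 2, beside 9.08% of all tested genes. Aldh1l1 (chr6:90486427-90600203), the folate enzyme used as an astrocyte marker, spanned 25 to 307 with a median of 71 in miNSC, against 15156 in each NSC library. The miNSC values overlapped the fibroblast range of 134 to 276 (log2 difference -7.69 ± 0.65, adjusted p = 0.000121, limma). Gfap, the astrocyte intermediate filament, ran from 12 in tail-tip 4F1 at passage 8 to 8216 and 8417 in the Sox2-GFP MEF KF line, against 10338 and 10890 in NSC. With a median of 193 its spread over lines was too wide for the test (adjusted p = 0.122, limma). Clu, the secreted chaperone clusterin, spanned 16 to 355 in miNSC, against 1150 and 446 in NSC (log2 difference -4.28 ± 0.92, adjusted p = 0.0282, limma, lost in 3 of 26). Sparcl1, a matrix protein of astrocytes and vessels, was the opposite, with 286 to 8216 in miNSC, against 34 and 10 in NSC (6.63 ± 1.07, adjusted p = 0.00882, limma, lost in 2 of 26). The glutamate transporter Slc1a2 (87 to 1960 in miNSC, against 7518 and 2360 in NSC) and the adhesion protein Hepacam (111 to 4710, against 9430 and 5950 in NSC) did not overlap and did not pass.

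Genes of the other 2 lineages differed in a few members. Of 12 tested oligodendrocyte genes 1 was higher and 2 lower, and of 16 tested neuron genes 0 were higher and 2 lower. Over all tested genes the shares were 2.54% higher and 2.25% lower. Bcas1, a protein of newly formed oligodendrocytes, spanned 1024 to 2274 with a median of 1555 in miNSC, against 260 and 190 in NSC (log2 difference 2.75 ± 0.27, adjusted p = 0.000372, limma, held in all 26 alternatives). Nkx2-2, a homeobox factor of oligodendrocyte precursors, was at 0 to 134 in miNSC, against 703 and 206 in NSC, and was not called (adjusted p = 0.0732, limma). Olig2, the lineage factor of oligodendrocytes and of cultured neural stem cells, overlapped at 6320 to 21808 in miNSC and 11652 and 9150 in NSC. Elavl3, a neuronal RNA-binding protein, spanned 1 to 40 in miNSC, against 203 and 220 in NSC (log2 difference -4.34 ± 0.86, adjusted p = 0.0211, limma, lost in 3 of 25). Tubb3, the neuronal tubulin, was at 44 to 766 in miNSC, against 990 and 1573 in NSC, without overlap and without a call (adjusted p = 0.145, limma).

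**Figure D2:**
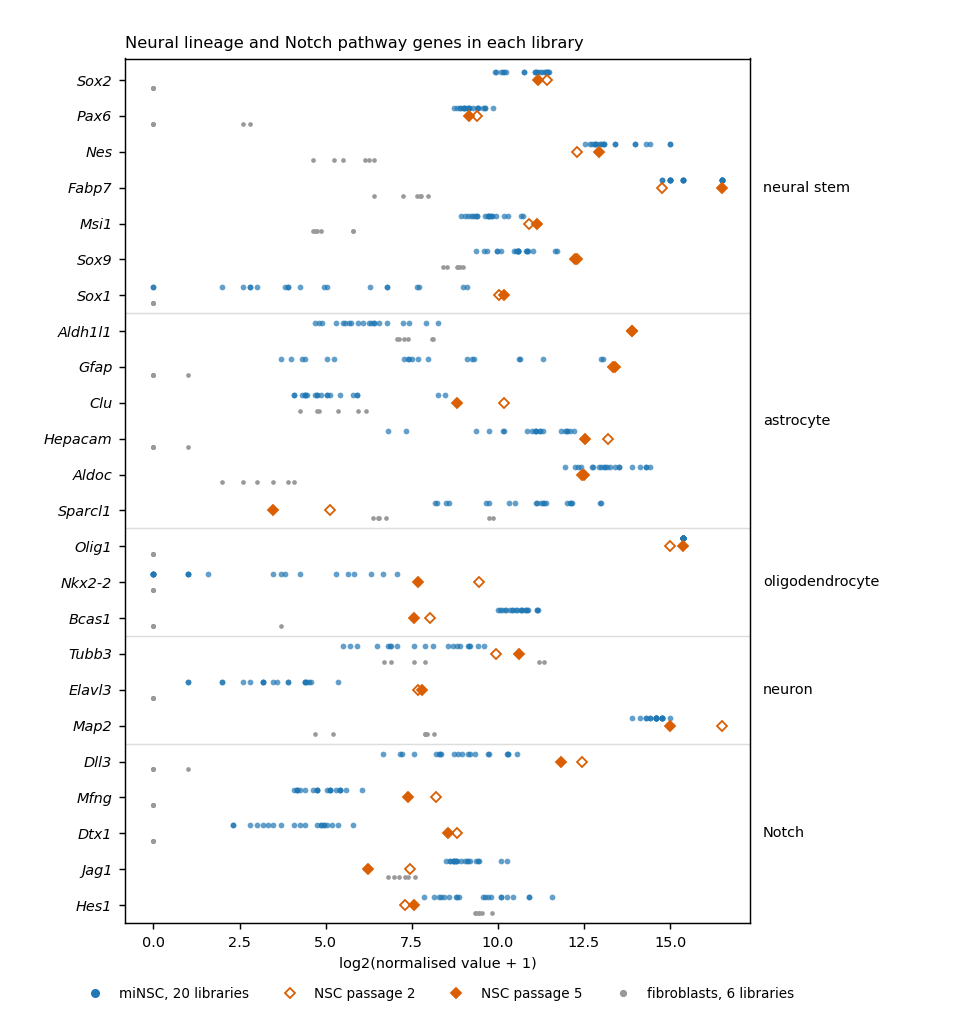
Value of neural stem, astrocyte, oligodendrocyte, neuron and Notch pathway genes in each library, as log2(normalised score + 1) on the horizontal axis, with the symbols for the 20 miNSC libraries, the NSC libraries at passages 2 and 5 and the 6 fibroblast libraries given in the legend. Sox2, Pax6 and Fabp7 overlap between the cell types, while Aldh1l1 stands at 25 to 307 in miNSC, against 15156 in both NSC libraries.

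Each of the signalling lists held some members that passed, as did 4.8% of all tested genes. Whether the shares differ was not tested. In the Notch list, the pathway by which neighbours hold each other in the stem state, 1 of 19 tested was higher in miNSC and 3 were lower. Dll3, a ligand-like inhibitor, spanned 100 to 1499 in miNSC, against 5604 and 3636 in NSC (log2 difference -3.40 ± 0.77, adjusted p = 0.0352, limma, lost in 7 of 26). Mfng, the Fringe enzyme that adds sugar to Notch, spanned 16 to 66 in miNSC, against 294 and 166 in NSC (-2.94 ± 0.35, adjusted p = 0.00148, limma). Dtx1, a Deltex ubiquitin ligase of Notch, spanned 4 to 54 in miNSC, against 446 and 372 in NSC (-4.45 ± 0.73, adjusted p = 0.00906, limma, lost in 1 of 25). Against these stood the ligand Jag1, at 358 to 1239 in miNSC, against 174 and 74 in NSC (2.19 ± 0.40, adjusted p = 0.0156, limma, lost in 3 of 26). The target gene Hes1, at 232 to 3048 in miNSC and 158 and 190 in NSC, varied too much to pass (adjusted p = 0.123, limma).

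In the Wnt list 2 of 25 were higher and 1 lower. Wif1, a secreted Wnt inhibitor, spanned 83 to 195 in miNSC, against 26 and 8 in NSC (log2 difference 3.06 ± 0.37, adjusted p = 0.00158, limma), and Rspo3, a secreted Wnt amplifier, 90 to 161 in miNSC, against 32 and 34 in NSC (1.94 ± 0.16, adjusted p = 0.00012, limma). Both passed in all 25 alternatives. Wnt7b, a ligand of the forebrain, spanned 528 to 3194 in miNSC, against 6468 and 8217 in NSC (-2.40 ± 0.53, adjusted p = 0.0314, limma, lost in 5 of 26). In the Hedgehog list 2 of 11 were higher, Gas1, a coreceptor (3280 to 6861 in miNSC, against 2078 and 1910 in NSC, adjusted p = 0.0185, limma, lost in 3 of 26), and Hhip, an inhibitor (205 to 523, against 201 and 130 in NSC, adjusted p = 0.0368, limma, lost in 11 of 26). In the BMP and Id list only Bmp5, a BMP ligand, passed among 19, with 0 to 434 and a median of 213 in miNSC and 0 in both NSC libraries (adjusted p = 0.00402, limma, lost in 3 of 26). Of 18 growth factor receptors, Kit and Ntrk2 were lower, at adjusted p = 0.0464 and 0.0494 (limma), and were lost in 15 and 17 of 26 alternatives. The EGF receptor gene Egfr overlapped, with 3924 to 9950 in miNSC and 9706 and 7798 in NSC.

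Of the cell cycle genes acting in G1, 2 of 21 were lower in miNSC, beside 2.25% of all tested genes. Cdk6 (chr5:3341485-3531008), a cyclin D-dependent kinase, spanned 0 to 99 with a median of 6 in miNSC, against 585 and 956 in NSC and 226 to 1176 in fibroblasts. All miNSC libraries were below both other cell types (log2 difference from NSC -6.60 ± 0.85, adjusted p = 0.00261, limma, held in all 25 alternatives). Its relative Cdk4 overlapped, with 5028 to 10890 in miNSC and 5242 and 8417 in NSC. Cdkn1c (p57), a maternally expressed inhibitor of cyclin kinases, spanned 9 to 116 in miNSC, against 484 and 177 in NSC (adjusted p = 0.0374, limma, lost in 8 of 25). Among 20 imprinted genes 2 were higher and 1, Cdkn1c, lower, beside 2.54% and 2.25% of all tested genes. Mest, a paternally expressed hydrolase, spanned 8418 to 42162 in miNSC, against 2717 and 6168 in NSC (log2 difference 2.47 ± 0.53, adjusted p = 0.0282, limma, lost in 4 of 26). Peg10, a paternally expressed retrotransposon-derived gene, spanned 1358 to 5539 in miNSC, against 850 and 876 in NSC (adjusted p = 0.0347, limma, lost in 10 of 26). Nnat, a paternally expressed brain protein, ran from 1 in ICR MEF BKF to 4840 in Sox2-GFP MEF KF, against 16127 and 9708 in NSC, and was not called (adjusted p = 0.187, limma).

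Interferon-linked genes held 2 large differences in 17 tested, both higher, in membrane proteins of 1 family. Over all tested genes, 2.54% were higher. Ifitm2 spanned 808 to 1822 with a median of 1413.5 in miNSC, against 98 and 47 in NSC (log2 difference 4.28 ± 0.30, adjusted p = 2.11e-05, limma), and Ifitm3 170 to 2899 with a median of 872, against 16 and 4 in NSC (log2 difference 6.39, adjusted p = 0.00848, limma, lost in 1 of 26). Both restrict virus entry and stood at 2033 to 2816 and 3476 to 4756 in fibroblasts, so every miNSC library lay between NSC and fibroblasts. Reads of such close relatives can be split between them in counting, so the level of each is uncertain. The induced genes Ifit2, Ifit3 and Irf9 were below both NSC libraries in every miNSC library without passing, for example Irf9 at 68 to 154 in miNSC, against 166 and 186 in NSC (adjusted p = 0.0708, limma). None of 9 tested class I antigen presentation genes passed or was free of overlap.

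Of 6 tested genes that serve as reprogramming factors, Klf4 was higher in miNSC and Pou3f2 lower, beside 2.54% and 2.25% of all tested genes. Klf4, a zinc-finger pluripotency factor, spanned 24 to 3398 with a median of 352 in miNSC, against 6 and 4 in NSC (log2 difference 5.83 ± 1.26, adjusted p = 0.0286, limma, lost in 4 of 26). Pou3f2, a POU factor of neural cells, spanned 481 to 1526 in miNSC, against 1698 and 1648 in NSC (-1.20 ± 0.27, adjusted p = 0.0342, limma, lost in 8 of 26). The scores do not tell reads of a transgene from reads of the cells' own gene. Of 19 glycolysis genes 3 were higher in miNSC, beside 2.54% of all tested genes. Ldha, lactate dehydrogenase A, spanned 4242 to 32716 in miNSC, against 1326 and 4005 in NSC (2.86 ± 0.60, adjusted p = 0.0253, limma, lost in 3 of 26), and Pgk1 and Pfkl overlapped NSC at passage 5. Brain proteoglycan and adhesion genes had 0 of 29 higher and 2 lower, beside 2.54% and 2.25% of all tested genes. Cdh11, a cadherin of mesenchyme and neural precursors, spanned 72 to 265 in miNSC, against 1104 and 1019 in NSC and 3048 to 4472 in fibroblasts (-3.05 ± 0.36, adjusted p = 0.00142, limma). The lectican Ncan was at 3733 to 16122 in miNSC, against 28060 and 20138 in NSC (adjusted p = 0.0269, limma, lost in 4 of 26).

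Further large differences lay outside these lists. Among those higher, Igfbp4, a secreted binder of insulin-like growth factors, spanned 4568 to 32713 with a median of 11269 in miNSC, against 273 and 418 in NSC (log2 difference 5.23 ± 0.58, adjusted p = 0.00101, limma). Mrc2, a collagen uptake receptor, spanned 203 to 2078 in miNSC, against 12 and 11 in NSC and 4170 to 6861 in fibroblasts (6.09 ± 0.71, adjusted p = 0.0014, limma). Gpd1, glycerol-3-phosphate dehydrogenase, spanned 280 to 2964 in miNSC, against 38 and 62 in NSC and 0 to 1 in fibroblasts (4.61 ± 0.52, adjusted p = 0.00109, limma). Gpd1 thus stood above both other cell types, while Mrc2 lay between them. Pax9, a paired-box factor of pharyngeal pouches and sclerotome, was listed at 0 in both NSC libraries and spanned 130 to 342 in miNSC, and Clrn1, a sensory hair cell protein, was at 0 in NSC and 168 to 366 in miNSC. Both had adjusted p = 1e-08 (limma). Dmrta2, a doublesex-related factor of the cortical hem in mouse, spanned 67 to 376 in miNSC, against 5 and 2 in NSC (adjusted p = 0.000702, limma), unlike the forebrain genes above. Hlx, a homeobox factor of visceral mesenchyme, spanned 100 to 1893 in miNSC, against 8 and 21 in NSC (adjusted p = 0.0134, limma, lost in 3 of 25). Pcdha3, a clustered protocadherin, spanned 97 to 344 in miNSC, against 0 and 18 in NSC (adjusted p = 0.00703, limma, lost in 2 of 26). Wipf3 and Nrk, the last of the 15 largest not yet named, passed at adjusted p = 0.0342 and 0.0385 (limma) and were lost in 7 and 12 of 26.

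Among those lower, Cybrd1, a duodenal-type ferric reductase, spanned 11 to 70 in miNSC, against 3280 and 742 in NSC (log2 difference -5.59 ± 0.62, adjusted p = 0.00097, limma). Paqr7, a membrane progestin receptor, spanned 0 to 10 in miNSC, against 743 and 190 in NSC (adjusted p = 0.00285, limma), and Ldb2, a cofactor of LIM-homeodomain proteins, 0 to 30 in miNSC, against 110 and 96 in NSC (adjusted p = 0.00432, limma). Both were lost in 2 of 25 alternatives. Luzp2, a leucine-zipper protein of brain, and Olfr658, an olfactory receptor gene, were at 0 in all 20 miNSC libraries, against 534 and 158 and against 529 and 350 in NSC (adjusted p = 2.11e-05 and 2.72e-06, limma). Akr1c14, an aldo-keto reductase of steroids, was lower at 0 to 546 in miNSC, against 714 and 670 in NSC, but lost its call in 9 of 26 alternatives, and Casp8, an initiator caspase, in 10 of 24. Csn3, a casein gene, was at 0 in 8 lines and reached 334 in tail-tip KMF, against 439 and 543 in NSC (adjusted p = 0.00164, limma, lost in 2 of 25). Vsnl1, a neuronal calcium sensor, and Gpr149, an orphan receptor, completed the 15 lowest at adjusted p = 0.00886 and 0.0209 (limma). Vsnl1 was lost in 2 and Gpr149 in 5 of 25 alternatives.

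The NSC libraries themselves differed by passage in a coordinated way. Over 2-fold apart were 2964 of 15567 genes (19%), with 1414 higher at passage 2 (9.08%) and 1550 higher at passage 5 (9.96%), against 728 to 1083 between libraries of the same miNSC or fibroblast group. Passage 5 was over 2-fold above passage 2 for 20 of 20 mitosis genes, 21 of 22 DNA replication genes and 22 of 23 cholesterol synthesis genes. It was likewise above for 12 of 19 glycolysis genes. Mki67, the proliferation antigen, was at 524 at passage 2 and 9706 at passage 5, Top2a, a topoisomerase of dividing cells, at 496 and 11648, and Plk1, a mitotic kinase, at 18 and 2078. Mcm5, a replicative helicase subunit, was at 52 and 1671. With 1 library per passage these differences have no replicate check, and passage cannot be told apart from the library.

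Between miNSC and NSC, limma called 0 of 20 mitosis, 0 of 22 replication and 0 of 23 cholesterol genes. With the NSC libraries this far apart in these genes a call was hardly possible, so the counts do not show that the cell types were alike. The median log2 differences of miNSC from NSC were 1.51, 1.05 and 0.80, against 0.04 over all tested genes. Most miNSC lines stood near passage 5. On the mean log2(value + 1) of the mitosis list, miNSC lines spanned 8.88 to 11.38, against 7.19 at passage 2 and 11.22 at passage 5 in NSC. The lowest line, Sox2-GFP MEF KF, had 8.88, well under the next at 10.41, with Mki67 at 1692 and 1763. In the tail-tip 4F1 line, 1 of the passage 18 libraries stood at 8.96, against 10.74 in the other and at least 10.94 in both libraries of passage 8. Without the Sox2-GFP MEF KF line, limma called 1165 genes rather than 747.

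**Figure D3:**
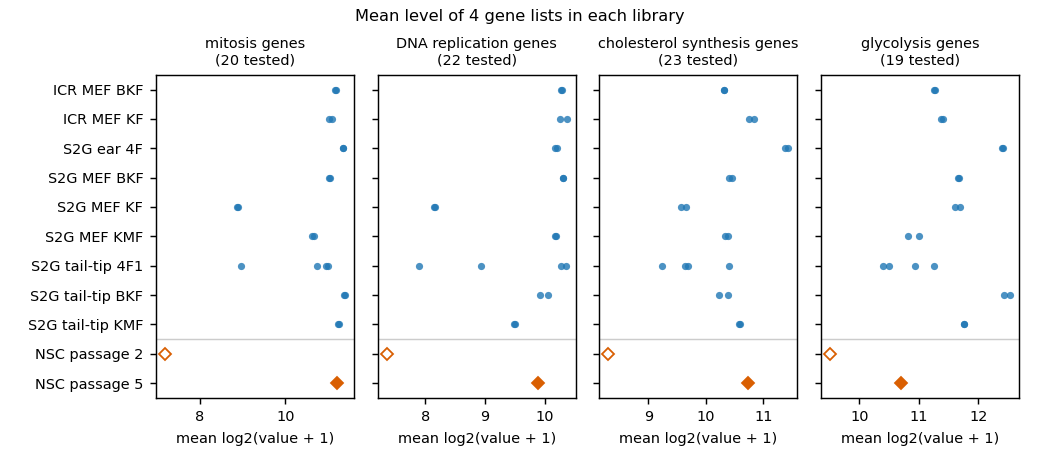
Mean log2(normalised score + 1) over the tested genes of the mitosis, DNA replication, cholesterol synthesis and glycolysis lists, 1 panel each, for each library of the 9 miNSC lines (upper rows, S2G standing for Sox2-GFP) and for NSC at passages 2 and 5 (lowest rows). NSC at passage 2 has the lowest mitosis level, 7.19, against 11.22 at passage 5, and the Sox2-GFP MEF KF line has the lowest miNSC level, 8.88.

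**Figure D4:**
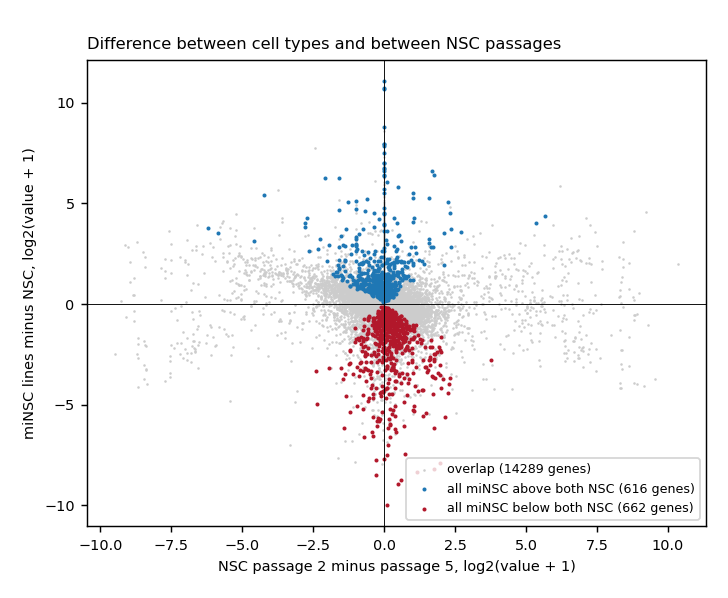
Difference between miNSC lines and NSC (vertical axis) against the difference between NSC at passages 2 and 5 (horizontal axis), both on log2(normalised score + 1), with 1 point per tested gene. Blue points are the 616 genes for which all miNSC libraries lie above both NSC libraries and red points the 662 for which all lie below, and both sets gather where the passages differ little, which the rule of no overlap favours.

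The 16 genes with the largest folds between passages were each at 0 in 1 NSC library and at 446 to 738 in the other. Ifi209, an interferon-inducible gene (0 at passage 2, 708 at passage 5), Cftr, the chloride channel of epithelia (620 and 0), and the olfactory receptor gene Olfr1116 (0 and 496) were among them, and all 16 reached both 0 and 358 or more among miNSC libraries. Jumps of this kind were no mark of the NSC: 86 to 151 genes were at 0 in 1 library and at 100 or more in the other within each pair of libraries of 1 group, against 148 in the NSC pair.

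Measured over all tested genes, lines differed in how near they stood to the NSC. The median absolute log2 difference from passage 5 spanned 0.313 for ICR MEF BKF to 0.404 for Sox2-GFP MEF KF, and that from passage 2 spanned 0.368 for Sox2-GFP MEF KF to 0.572 for ICR MEF KF, against 0.379 between the NSC libraries. The line nearest to passage 2 was thus the farthest from passage 5. Genes over 2-fold above both NSC libraries numbered 872 to 1102 per line and those over 2-fold below both 783 to 1293. They were shared by all 9 lines for 137 genes above and 161 below, while 715 above and 826 below were found in 1 line only. Libraries of the same miNSC group were themselves over 2-fold apart for 730 to 1083 genes. How far such scatter enters the genes found in 1 line only was not tested. Between 5 embryonic-origin and 4 adult-origin lines limma called 0 genes, with 1345 at an unadjusted p under 0.05. Fitted alone against NSC, the embryonic lines gave 161 genes and the adult lines 468.

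Genes of chromosomes 1 and 10 shifted together in some libraries. For each library the log2 deviation of a gene from its median over the 22 libraries was taken, for genes with a mean of at least 100, and summarised by chromosome. On chromosome 1 (667 genes) the median was 0.292 to 0.314 in the 4 ICR miNSC libraries and -0.115 to 0.018 in the Sox2-GFP miNSC libraries, against -0.008 in NSC at passage 2 and 0.254 at passage 5. On chromosome 10 (581 genes) it was 0.333 to 0.356 in ICR miNSC and -0.078 to -0.013 in Sox2-GFP miNSC, against -0.111 and 0.218 in NSC. The other 18 chromosomes stayed within -0.078 and 0.081 in every library. Passage 5 exceeded passage 2 for 71.4% of the genes on chromosome 1 and 75.2% on chromosome 10, against 34.9 to 48.9% on the others. These chromosomes held 11.1% of the tested genes, 6.0% of those without overlap higher in miNSC and 14.2% of those lower. Genes named here that lie on them include Col5a2, Casp8, Hlx, En1, Pax3 and Ifi209 on chromosome 1 and Wif1, Rspo3, Pfkl, Nr2e1, Cdk4 and Fabp7 on chromosome 10. Without genes of both chromosomes limma called 710 of 13833, a setting chosen after the data had been seen, and the part of this shift in single results was not tested.

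**Figure D5:**
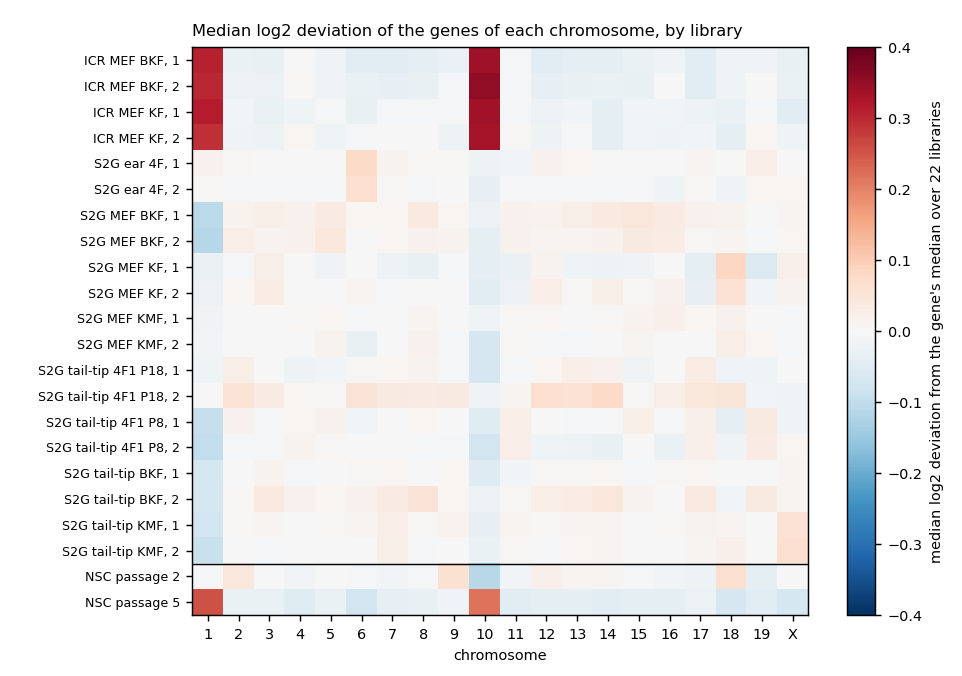
Median log2 deviation of the genes of each chromosome (horizontal axis) from their own medians over the 22 libraries, in each library (rows, S2G standing for Sox2-GFP), for genes with a mean normalised score of at least 100, with the deviation on a colour scale of -0.4 to 0.4 and a black line between the miNSC libraries (above) and the NSC libraries (below). Chromosomes 1 and 10 stand out in the 4 ICR miNSC libraries, at 0.292 to 0.356, and in NSC at passage 5, at 0.254 and 0.218.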

How the data were processed

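Messenger RNA (oligo(dT) beads, random hexamers, total RNA by Trizol per the labels' protocols) was measured in 28 libraries. The deposited values are scores that the authors normalised, whole numbers whose normalisation is not given in the sources used here; RSEM, Bowtie2 2.0 and mm10 are named per the submitters' processing notes, without roles. Totals span 15565073 to 15571626, 10 genes stand at 92914 in each library, and depth is unknown, as is the precision it gives. Such scores may follow gene length (medians over equal bins of length 48 to 824, over bins of GC content 180 to 303.5), so genes were not compared with each other. All 17295 identifiers are in GENCODE M21 (GRCm38).

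Values became log2(value + 1), averaged per line, since libraries of a group may share a picked colony and a fit over libraries would count them as independent. Genes whose mean over 22 libraries reached 10 were tested by limma 3.58.1 (R 4.3.3) with a variance trend, 9 lines against 2 NSC libraries, adjusted by Benjamini and Hochberg at 0.05. The scripts were tested on simulated data. Python 3.11.15, numpy 2.4.6, pandas 2.3.3 and matplotlib 3.10.9 did the rest. Genes outside lists were named by rule: the 15 largest differences each way among genes called, without overlap and with a mean of at least 100, up to 8 each way at 0 on 1 side, and 8 each way between NSC passages. Members and lists were chosen with earlier results of these data known. Alternatives were another pseudocount, filter, normalisation, centring, variance prior, sample unit, and leaving out libraries, lines, origins or strain; leaving out chromosomes 1 and 10 was chosen after seeing the data. Promoters came from RefSeq; Hoxb2, Hoxb3, Tbx15, Irx5 and Peg10 had none in the table. Some genes are not reported here.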

Additional observations from a re-analysis of the deposited data

Results flagged for a closer look

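Over the 9 miNSC lines, 14 of 118 named genes and 5 of 29 lists had 1 line whose gap to the next line, divided by the range, was above Dixon's critical value for 9 samples, which chance gives for about 5% of groups. The line levels are means of log2(value + 1). A ratio of 1.0 means that the other 8 lines were equal.

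The Sox2-GFP MEF KF line was the highest for Clu (0.607), and the lowest for the lists of G1 cyclins and kinases (0.649), DNA replication (0.562) and mitosis (0.612). The Sox2-GFP MEF KMF line was the highest for Tbx18 (0.549, level 9.45 against 7.84 in the next) and Jag1 (0.548) and the lowest for Bmp5 (0.64) and the neuron list (0.583). The Sox2-GFP MEF BKF line was the lowest for the Y-linked gene Ddx3y (0.601) and for Ifit2 (0.731). The tail-tip 4F1 line was the highest for Col5a2 (0.763, level 9.79 against 2.32) and Casp8 (0.654), and the lowest for Vax2 (0.85), Cntfr (0.553) and the forebrain list (0.579). The tail-tip KMF line was the highest for Csn3 (1.0, level 4.19 against 0) and the lowest for Hoxd8 (0.624). The ICR MEF KF line was the highest for En1 (0.542, level 9.34 against 7.35).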

How the results depend on the processing

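No paired analysis was possible because the NSC libraries carry passages and no replicate numbers. The count of 747 called genes became 6483 with libraries in 14 groups as samples, 1234 with libraries as samples in 2 cell types, 161 with embryonic-origin and 468 with adult-origin lines only. It spanned 144 (NSC passage 5 alone) to 1105 (passage 2 alone) on leaving out an NSC library, 472 (without tail-tip BKF) to 1165 (without Sox2-GFP MEF KF) on leaving out a line, and 483 to 526 on leaving out a miNSC replicate number. A lone NSC library is assumed to vary like the lines. Other settings gave 527 to 787. The 1278 genes without overlap became 2244 with embryonic-origin and 2564 with adult-origin lines only, 2640 to 5153 without an NSC library, 1320 to 1670 without a line and 1672 to 1681 without a replicate number; fewer libraries make overlap rarer by construction. The 2964 genes over 2-fold apart between NSC passages became 1768 at a mean of at least 100, with fewer genes tested. Of 84 called genes named, 32 passed in every alternative run for them, and none of 118 named genes reversed. The 118 had been chosen as called or without overlap in these same values. Leaving out libraries or lines cannot reverse a gene without overlap, so the lack of reversals is little evidence of stability. The cause of other changes was not tested. Depth, and what it limits, is unknown.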

Other observations

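Gene families gathered after the values had been seen are given as values only. Of 81 tested cytosolic ribosomal protein genes, 22 were higher in miNSC and 0 lower by limma, beside 2.54% and 2.25% of all tested genes. Without overlap were 29, all higher, beside 3.96% of all tested genes, and the median log2 difference was 0.67. Rps20 spanned 7153 to 13042 in miNSC, against 2943 and 5321 in NSC at passages 2 and 5 (adjusted p = 0.00838, limma), and Rpl10a 6575 to 10890 in miNSC, against 2234 and 4242 in NSC (adjusted p = 0.00657, limma). The family was also lower at passage 2 than at passage 5 in NSC, with a median log2 difference of -0.76, and reads of its pseudogene copies can be split among them.

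Of 18 tested basement membrane genes, 5 were higher in miNSC and 0 lower, beside 2.54% and 2.25% of all tested genes, with Col4a1, a chain of type IV collagen, at 103 to 1548 in miNSC, against 86 and 16 in NSC, and Lamb1, a laminin chain, at 1096 to 3194 in miNSC, against 500 and 534 in NSC (adjusted p = 0.0368 and 0.00474, limma). Lama5, Nid2 and Col4a2 were the others. Of 8 tested fibrillar collagen genes 0 were higher and 1 was lower, and the difference between these families was not tested.

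Potassium channel genes had 2 of 47 higher and 4 lower, beside 2.54% and 2.25% of all tested genes. Of the 47, 9 were without overlap and lower in miNSC and 1 higher, beside 4.25% and 3.96% of all tested genes. Kcnk2, a mechanosensitive channel, was at 10 to 151 in miNSC, against 1683 and 676 in NSC (adjusted p = 0.00774, limma). Gpr37l1, an astrocyte receptor, was at 34 to 858 in miNSC, against 8894 and 8417 in NSC (adjusted p = 0.00848, limma), and Ednrb, the endothelin receptor of glia, at 714 to 17981 in miNSC, against 92914 and 28060 in NSC (adjusted p = 0.0211, limma). Mapt, the neuronal tau protein, was at 16 to 174 in miNSC, against 2140 and 437 in NSC (adjusted p = 0.0143, limma).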
